A study of Homo sapiens with 56 samples.

Results

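Iron storage, iron uptake and heme handling were followed through 10 named genes: FTH1, FTL, TFRC, SLC40A1, SLC11A2, IREB2, ACO1, NCOA4, BACH1 and BLVRB. They were chosen by symbol for their place in iron handling, with earlier results of these data known. Counts of members set beside shares of all genes are therefore a description. Of the 10, 9 had a row among the 21595 named genes of the table, and all 9 passed the filter on low values that left 17203 nuclear genes for testing. SLC40A1 is not analysed here.

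The 56 RNA-seq libraries, made after poly-A selection, came from 4 established human cultures of mantle cell lymphoma, which is a cancer of B cells. MINO-P and JEKO-1 gave 15 libraries each, and MINO-VR and Z138 gave 13 each. The meaning of P and VR is not given, and nothing says that libraries of a group came from separate cultures, so p-values measure only the spread between these libraries. Cells were labelled CON, taken as untreated (5 libraries), or carried a code for an agent: CLF (6), BTZ (6), IBR (11), YM155 (4) or S63845 (6). Combinations were IBR_CLF (8), BTZ_CLF (4), IBR_YM155 (2), BTZ_YM155 (2), IBR_S63845 (1) and BTZ_S63845 (1). YM155 was developed as a suppressor of BIRC5 (survivin) expression and S63845 is an inhibitor of the MCL-1 protein, while CLF, BTZ and IBR are used as the labels give them, without dose or time.

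Cells take up iron bound to transferrin through the transferrin receptor, encoded by TFRC, and move it across membranes through the transporter encoded by SLC11A2. Iron that is not used at once is stored inside a shell built of ferritin heavy chains (FTH1), which oxidise iron, and ferritin light chains (FTL), which help to lay down the mineral core. NCOA4 carries ferritin to the lysosome, where the iron is released. The iron regulatory proteins encoded by ACO1 and IREB2 bind hairpins called iron-responsive elements when iron is low. That binding holds back translation of the ferritin mRNAs and slows the decay of the TFRC mRNA. BACH1 is a heme-binding repressor of HMOX1 and of ferritin genes, and BLVRB is a reductase that acts on biliverdin and flavins downstream of heme breakdown.

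FTH1, FTL and TFRC carry these hairpins. They are shown because storage and uptake are controlled through the same element placed at opposite ends of the mRNA. Each run of 27 bases is from release 29 of the GENCODE transcripts (GRCh38), written 5′ to 3′, with the 6-base loop in capitals. The FTH1 and FTL elements lie in the 5′ UTR, at chr11:61967575-61967601 on the minus strand and chr19:48965336-48965362 on the plus strand. The 4 TFRC elements matched by the search given below lie in the 3′ UTR, between chr3:196050464-196050490 and chr3:196050980-196051006 on the minus strand.
FTH1: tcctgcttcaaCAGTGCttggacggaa
FTL: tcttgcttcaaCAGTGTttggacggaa
TFRC element 1: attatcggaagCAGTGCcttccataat
TFRC element 2: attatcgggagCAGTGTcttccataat
TFRC element 3: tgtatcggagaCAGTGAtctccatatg
TFRC element 4: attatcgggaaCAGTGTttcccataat
The 2 ferritin elements shared 25 of 27 bases. The search was for a C, any 5 bases, the loop CAGTGN, and 5 bases able to pair with the first 5 (G with U allowed), on the transcript strand. It matched the 5′ UTR of 38 of 19473 genes (0.195%) and the 3′ UTR of 164 of 19502 (0.841%), and TFRC was the 1 gene with 4 or more matches in a 3′ UTR. Of the 9 measured members, 3 matched. A match describes the letters and is not a test of binding, and no match in the other members says only that these letters were not found.

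The libraries held 5.52 to 21.6 M reads (median 15.9), as recovered from the steps of the low values, and 1.91 to 80.5% of a library (median 6.69%) came from the 15 mitochondrial genes, so levels are given as CPM (the library-scaled count) rescaled to the nuclear genes, called nuclear CPM. Mitochondrial shares moved with treatment, at 1.91 to 3.92% in CON, 4.11 to 67.6% in BTZ and 5.59 to 20.9% in IBR. All 6 libraries above 50% were of JEKO-1: both BTZ libraries numbered 1 and 2, both BTZ_CLF and both IBR_CLF libraries. All 8 marker genes of mantle cell lymphoma B cells had a median of at least 1 CPM (summed level 895 to 6456), while summed markers reached at most 11.2 CPM for T cells, 5.98 for myeloid cells, 57.9 for erythroid cells and 77.3 for epithelial cells and fibroblasts. All 4 T cell markers (CD3D, CD3E, CD3G and CD2) had medians of 0, as did CSF1R, CD163, HBB, KRT18 and COL1A2. CD14 (0.173 CPM), HBA1 (0.254) and HBA2 (0.131) had medians above 0, and EPCAM (5.61) and COL1A1 (6.61) had medians above 1 CPM. The last 2 reached 1 CPM in 53 and 46 of the 56 libraries, and their part in the results was not tested. In these bulk cultures, fewer cells of a kind and less RNA per cell cannot be told apart. The library labelled JEKO-1 BTZ replicate 3 stood apart from the others of its group. It correlated at r = 0.801 and 0.803 across genes with its 2 partners, which correlated at 0.962 with each other. It had a mitochondrial share of 9.92% against 67.5 and 67.6%. The 2 libraries of Z138 IBR_CLF (r = 0.964) held HMOX1, the heme oxygenase gene, at 11.3 and 335 nuclear CPM, and the 2 of Z138 IBR correlated at 0.953. Among libraries of the same group, 8 pairs of MINO and JEKO-1 whose names differ by a final letter were much closer than others: the chi-square per degree of freedom over genes was 4.10 to 8.70, against 90.6 to 364 for 10 other pairs. The 5 such pairs of Z138 were not closer, at 52.4 to 311. The 8 still differed beyond sampling noise but may not be independent. They were counted as separate libraries in the tests except where stated.

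In untreated cells the ferritin mRNAs were by far the most abundant of the 9. Per kilobase of annotated exon, FTL stood at 1089 ± 361 nuclear CPM (SD, n = 5) and FTH1 at 585 ± 289, and their ranges overlapped (685 to 1521 and 328 to 1082). NCOA4 followed at 47.3 ± 9.17 and TFRC at 42.2 ± 11.6, also with overlapping ranges. IREB2 (12.3 ± 1.69), BACH1 (10.03 ± 3.69) and BLVRB (7.83 ± 3.02) came next, and neighbours among these 3 genes had overlapping ranges. SLC11A2 (2.70 ± 0.482) and ACO1 (2.58 ± 3.22) were lowest, and the spread of ACO1 came from 1 library, JEKO-1, at 8.32. This order depends on the division by exon length. Without it FTH1 had a higher CON mean than FTL, 1188 against 956.5 nuclear CPM, again with overlapping ranges.

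Ferritin rose with both BTZ and IBR, and BACH1 rose with both. TFRC passed as lower with IBR, but less firmly. That call did not hold in JEKO-1 and Z138 alone, and 12 of 16 fits leaving out 1 library lost it. In BTZ against CON 3 of 9 members passed the test, all higher, where 18.6% of all tested genes passed (4.87% higher and 13.8% lower). In IBR against CON 4 of 9 passed, 3 higher and 1 lower, where 10.8% of all genes passed (4.37% higher and 6.39% lower). Each comparison is from limma, in 1 model with terms for agent, line and library series (HK or MCL in the library names), with Benjamini-Hochberg adjustment over all 17203 genes and a threshold of 0.05. The median fitted log2 difference of the 9 members was 0.56 for BTZ and 0.23 for IBR, beside -0.17 and -0.0018 for all genes tested. The comparisons share the CON libraries, so their values are set side by side and no overlap between them is read. In MINO-P and MINO-VR the CON and BTZ libraries were of the HK series and the IBR, YM155 and S63845 libraries of the MCL series, so series and treatment cannot be told apart for these 3 agents in those lines. JEKO-1 and Z138 libraries are all of the MCL series, and in these 2 lines alone the differences for IBR were 2.18 for FTH1 (adjusted p = 0.00960, limma), 2.17 for FTL (adjusted p = 0.0161) and 1.57 for BACH1 (adjusted p = 0.0275). For BTZ they were 1.76 (adjusted p = 0.0114), 1.95 (adjusted p = 0.0105) and 1.23 (adjusted p = 0.0438). Without the 6 libraries above 50% mitochondrial, FTH1, FTL and BACH1 passed again for both agents, and TFRC for IBR did not (-1.10, adjusted p = 0.0598).

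**Figure D1:**
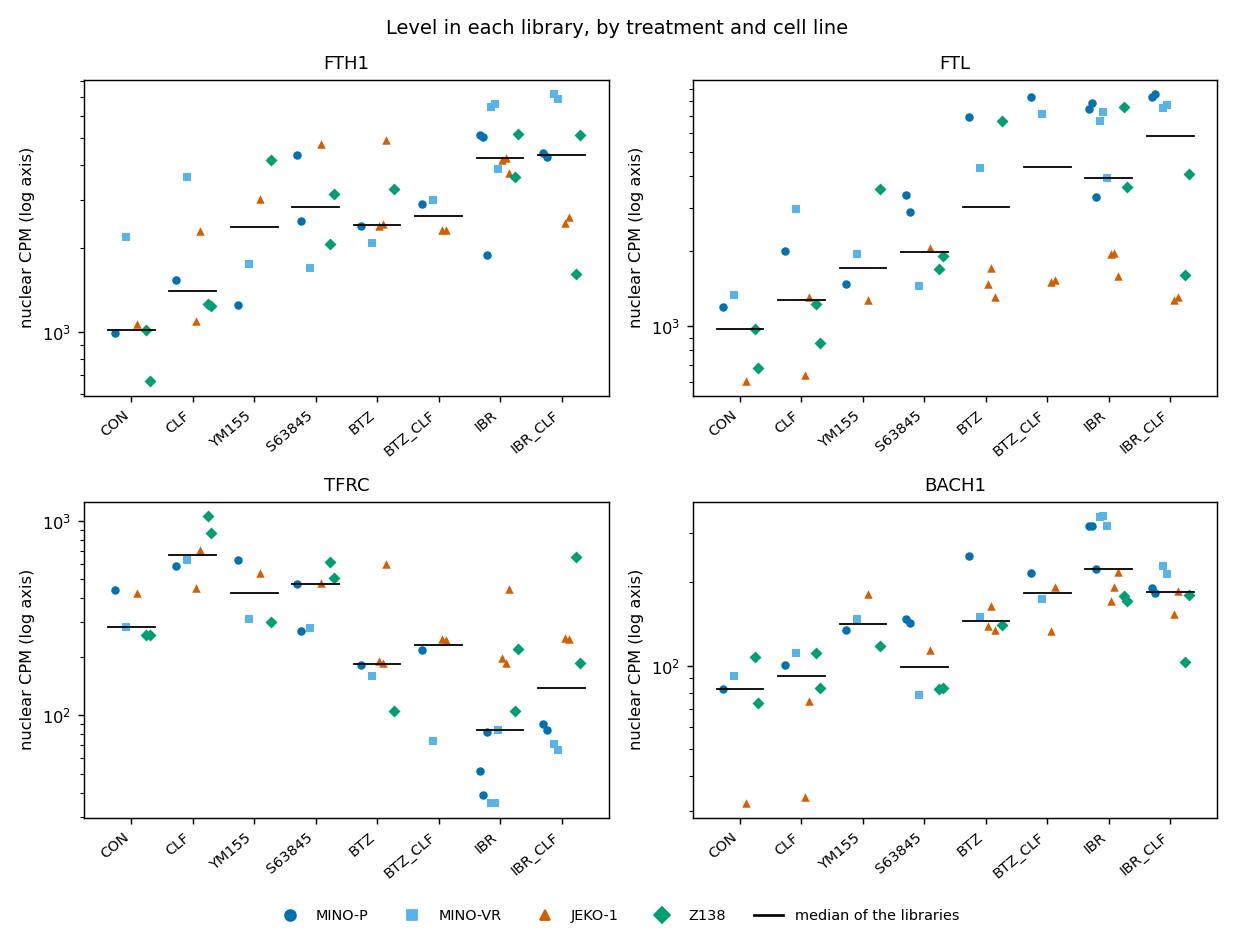
Nuclear CPM (log axis) of FTH1, FTL, TFRC and BACH1 in each library, by treatment; symbols mark the cell line and bars the median of the libraries. In IBR all 11 FTL values lie above the highest CON value of 1335, and 10 of 11 TFRC values lie below the lowest CON value of 258.

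FTL, the ferritin light chain (gene at chr19:48965309-48967897 in the table), was at 1192 nuclear CPM in MINO-P CON, 1335 in MINO-VR CON, 602 in JEKO-1 CON, and 973 and 681 in Z138 CON. In IBR it ran from 1591 to 7889 with a median of 3949, and the 2 groups did not overlap. In BTZ it ran from 1308 to 6921 with a median of 3012, and 5 of 6 libraries lay above every CON library. The fitted log2 difference was 2.23 (SE 0.37, adjusted p = 0.000107, limma) for IBR, a 4.70-fold rise, and 2.03 (SE 0.38, adjusted p = 0.000129) for BTZ, a 4.09-fold rise. Every treated library was above the CON of its own line, in 11 of 11 for IBR and 6 of 6 for BTZ, with ratios of line means between 3.05 in JEKO-1 and 6.78 in Z138 for IBR.

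FTH1, the heavy chain (chr11:61959718-61967635), was at 996 nuclear CPM in MINO-P CON, 2197 in MINO-VR CON, 1067 in JEKO-1 CON, and 1015 and 666 in Z138 CON. The MINO-VR value was the highest of the 5. In IBR it ran from 1894 to 6635 (median 4219), and 10 of 11 libraries were above all CON libraries. In BTZ it ran from 2093 to 4893 (median 2428), with 5 of 6 above all CON libraries; the MINO-VR library, at 2093, was below its own CON. The fitted log2 difference was 1.96 (SE 0.38, adjusted p = 0.000580, limma) for IBR and 1.32 (SE 0.39, adjusted p = 0.0123) for BTZ. On deposited CPM, with mitochondrial reads left in the total, the BTZ difference was 0.94 with adjusted p = 0.156. Reads of near-identical pseudogenes limit this value: 14 FTH1 pseudogene rows held 2.52 to 17.8% of the joint value (median 4.69%), and 3 FTL pseudogene rows held 1.29 to 7.39%.

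BACH1, the heme-sensing repressor (chr21:29194071-29630752), was at 82.3 nuclear CPM in MINO-P CON, 91.6 in MINO-VR CON, 32.0 in JEKO-1 CON, and 108 and 73.4 in Z138 CON. In IBR the range was 172 to 347 (median 223) and in BTZ 134 to 249 (median 145). Neither treated range overlapped that of CON. The fitted log2 difference was 1.63 (SE 0.25, adjusted p = 3.33e-05, limma) for IBR and 1.18 (SE 0.26, adjusted p = 0.000856) for BTZ. On deposited CPM the BTZ difference was 0.80 with adjusted p = 0.0521. In JEKO-1, where the CON library was the lowest of all 56, the ratio of line means was 6.07 for IBR and 4.58 for BTZ, against 1.93 and 1.55 in Z138.

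TFRC, the transferrin receptor (chr3:196012511-196082154), was at 441 nuclear CPM in MINO-P CON, 283 in MINO-VR CON, 424 in JEKO-1 CON, and 258 and 259.6 in Z138 CON. In IBR it ran from 35.3 to 446 with a median of 83.8, and JEKO-1 IBR replicate 3 was the 1 library above the highest CON value. In BTZ it ran from 105 to 603 (median 183), and 5 of 6 libraries lay below all CON libraries; the other, JEKO-1 BTZ replicate 3, was the highest at 603. The fitted log2 difference for IBR was -1.13 (SE 0.37, adjusted p = 0.0404, limma), 2.19-fold lower. The ratio of line means was 0.130 in MINO-P, 0.182 in MINO-VR, 0.650 in JEKO-1 and 0.625 in Z138. The call did not hold in JEKO-1 and Z138 alone (-0.63, adjusted p = 0.651), with paired library names averaged (-1.05, adjusted p = 0.112) or on deposited CPM (-1.09, adjusted p = 0.123). Of 16 fits that each left out 1 library, 12 lost the call (adjusted p up to 0.0947), and the others left out IBR replicate 3 of MINO-P, of MINO-VR or of JEKO-1, or replicate 2 of Z138. For BTZ the difference was -0.80 (SE 0.38, adjusted p = 0.136) and did not pass.

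BLVRB, the reductase downstream of heme breakdown (chr19:40447765-40465765), was at 14.8 nuclear CPM in MINO-P CON, 17.2 in MINO-VR CON, 17.9 in JEKO-1 CON, and 10.5 and 5.76 in Z138 CON. In BTZ it ran from 0 to 111 (median 46.7): 5 of 6 libraries were above all CON libraries and JEKO-1 BTZ replicate 3 was listed at 0. In IBR it ran from 14.9 to 145 (median 34.9), with 8 of 11 above all CON libraries. Neither difference passed, at 1.04 (SE 0.67, adjusted p = 0.308, limma) for BTZ and 1.67 (SE 0.66, adjusted p = 0.0969) for IBR. Without JEKO-1 BTZ replicate 3, 23.3% of all genes and 5 of 9 members passed in BTZ against CON: FTH1, FTL and BACH1 as before, BLVRB at 1.92 (adjusted p = 0.00349) and TFRC at -1.06 (adjusted p = 0.0279).

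The iron sensors, the ferritin carrier and SLC11A2 did not pass against CON under BTZ or IBR. IREB2 (chr15:78437431-78501454) was at 117 to 160.2 nuclear CPM in the 5 CON libraries, 139.6 to 391 in BTZ (median 188) and 47.8 to 148 in IBR (median 107.5). BTZ libraries were thus mostly above CON and IBR libraries mostly below, with 4 of 6 above the highest and 7 of 11 below the lowest CON value. Between the 2 agents the fitted log2 difference of IBR minus BTZ was -0.86 (SE 0.24, adjusted p = 0.00897, limma), 1.81-fold lower in IBR. ACO1, the other iron regulatory protein, differed by 0.75 in the opposite direction (SE 0.27, adjusted p = 0.0471), with 4.55 to 77.4 nuclear CPM in IBR (median 11.1) and 4.65 to 50.7 in BTZ (median 15.2). The medians of ACO1 run against this sign; JEKO-1, the line in which ACO1 was highest, gave 3 of 11 IBR and 3 of 6 BTZ libraries, and the fit has line as a term. These were 2 of 9 members where 18.4% of all genes passed (13.5% higher and 4.89% lower in IBR). On deposited CPM the IREB2 difference was -0.44 (adjusted p = 0.380), and in JEKO-1 and Z138 alone neither passed. The ACO1 call was lost with size factors (0.63, adjusted p = 0.0691), without a filter (0.75, adjusted p = 0.0519) and with paired names averaged (0.84, adjusted p = 0.0565). It was also lost in 11 of 17 fits that each left out 1 library (adjusted p up to 0.151), and held in those without MINO-P BTZ, JEKO-1 BTZ replicate 2, MINO-P IBR replicate 1 or 2, MINO-VR IBR replicate 1 or Z138 IBR replicate 2. With size factors IREB2 passed in BTZ against CON, at 0.71 (adjusted p = 0.0196). NCOA4 stayed between 131 and 333 nuclear CPM in all 56 libraries, the smallest ratio of highest to lowest among the 9, and its difference from CON was 0.28 (SE 0.16, adjusted p = 0.222) for BTZ and 0.02 (SE 0.16, adjusted p = 0.956) for IBR. SLC11A2 differed by -0.32 (SE 0.33, adjusted p = 0.560) for BTZ and -0.08 (SE 0.32, adjusted p = 0.924) for IBR, and its lowest value in BTZ was 7.92 nuclear CPM in Z138, beside 27.7 and 27.6 in CON of that line.

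**Figure D2:**
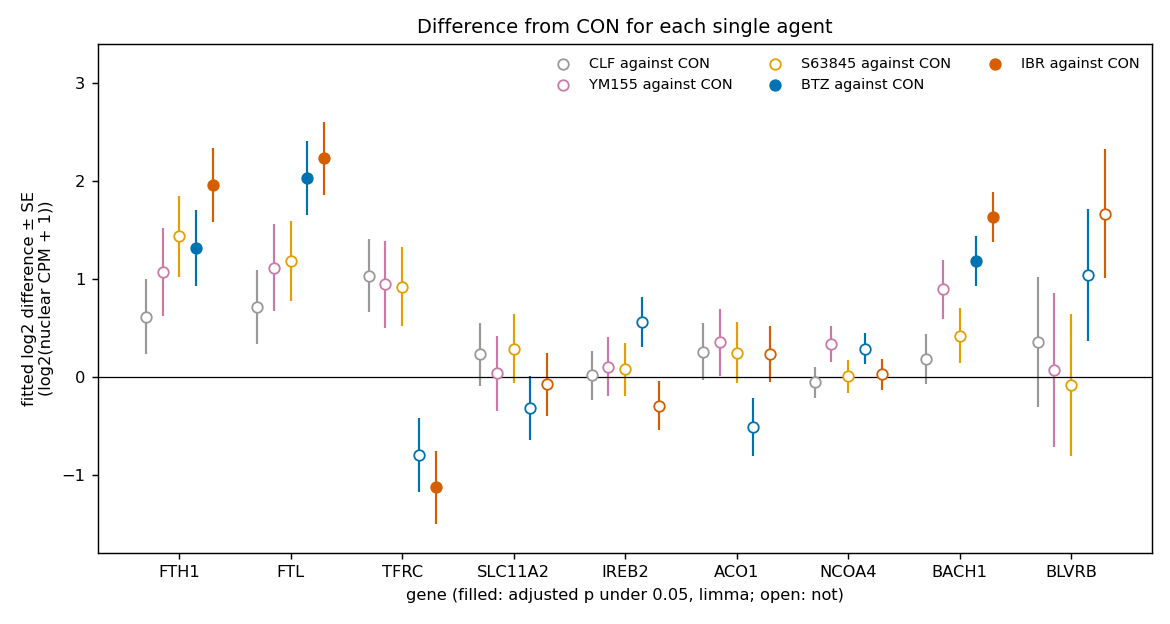
Fitted log2 difference from CON (limma, log2 of nuclear CPM plus 1; bars are SE) of the 9 members for CLF, YM155, S63845, BTZ and IBR; filled points passed an adjusted p of 0.05. Filled points are FTH1, FTL and BACH1 for BTZ and IBR, and TFRC for IBR at -1.13.

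No member passed the test for CLF, YM155 or S63845 against CON. The share of all genes that passed was 0% for CLF, 1.15% for YM155 and 0% for S63845. At an unadjusted p under 0.05 limma held 1, 4 and 3 of the 9 members, beside 62, 2509 and 428 of the 17203 genes. The member at that level under CLF was TFRC: its 6 CLF libraries ran from 449.7 to 1057 nuclear CPM (median 667), all above the highest CON value. The fitted log2 difference was 1.03 (SE 0.37, adjusted p = 1, limma), and Z138 had the highest CLF values, 1057 and 869 against 258 and 259.6 in CON. In S63845 FTH1 ran from 1705 to 4761 nuclear CPM (median 2820), with a difference of 1.44 (SE 0.41, adjusted p = 0.9998, limma). The lowest, 1705, was the MINO-VR library, below its own CON of 2197. FTL in S63845 ran from 1447 to 3381 (median 1990), all 6 above every CON library. In YM155 FTL was at 1483 in MINO-P, 1958 in MINO-VR, 1278 in JEKO-1 and 3545 in Z138, each above the CON of its own line, with a difference of 1.11 (SE 0.44, adjusted p = 0.214). TFRC was at 628, 311, 539 and 302.5 nuclear CPM in the same 4 libraries, each also above the CON of its own line. BACH1 in these 4 ran from 118.3 to 181.5, all above the highest CON value, with a difference of 0.89 (SE 0.30, adjusted p = 0.131, limma). FTH1 differed by 1.07 (SE 0.45, adjusted p = 0.244), and its MINO-VR library, at 1760, was below its own CON of 2197.

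**Figure D3:**
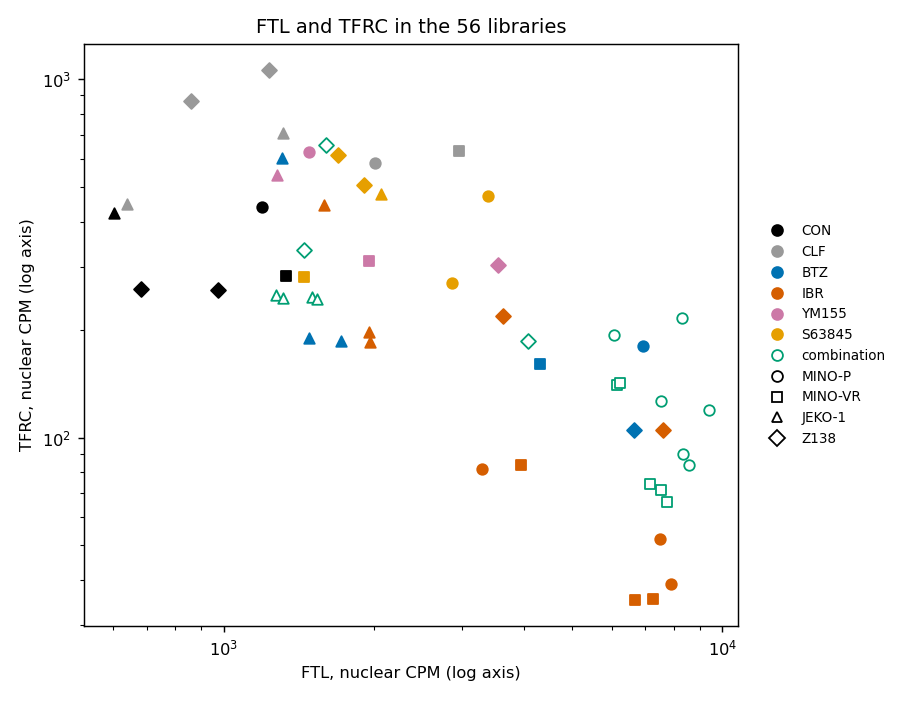
FTL against TFRC in the 56 libraries (both nuclear CPM, log axes), coloured by treatment with the symbol giving the cell line; open green symbols are combinations. The IBR libraries of MINO-P and MINO-VR lie at the lower right, with FTL up to 7889 and TFRC down to 35.3, and CLF libraries lie at the top, with TFRC up to 1057.

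The ratio of FTL to TFRC, which sets storage beside uptake and is not divided by gene length, had a median of 2.70 in CON (range 1.42 to 4.72), 47.1 in IBR (3.57 to 205), 18.1 in BTZ (2.17 to 63.5) and 1.64 in CLF (0.990 to 4.71). The CLF and CON ranges overlapped, and the lowest IBR and BTZ values, both from JEKO-1 replicate 3, also fell inside it. Over the means of the 37 groups of line and treatment, FTL and TFRC correlated at Pearson r = -0.758 and Spearman rho = -0.727. These groups share cell lines, agents and library preparations, so the values are a description.

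Adding CLF to IBR or to BTZ left no member past the threshold. Of all genes, 0% passed in IBR_CLF against IBR and 0.0698% in BTZ_CLF against BTZ. At an unadjusted p under 0.05 limma held 1679 and 1284 of the 17203 genes, and 2 and 0 of the members. The 2 were BACH1, at -0.46 (SE 0.20, adjusted p = 0.438), and TFRC, at 0.60 (SE 0.29, adjusted p = 0.496). In Z138 the IBR_CLF replicates differed widely: FTH1 was at 1619 and 5101 nuclear CPM, FTL at 1604 and 4072, and TFRC at 654 and 186. The first had the higher TFRC and the lower ferritin of the pair, and no member passed when any 1 library of the 2 groups was left out. In BTZ_CLF FTL was at 8303 in MINO-P, 7155 in MINO-VR, and 1506 and 1536 in JEKO-1, so the MINO and JEKO-1 libraries did not overlap. The highest FTL of all libraries, 9384, was in MINO-P BTZ_YM155, and the highest FTH1, 7913, was in MINO-P IBR_S63845; each of these groups is 1 library.

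Within single lines the tests had few libraries, with paired library names averaged and groups of 1 library borrowing the pooled spread. In JEKO-1, BACH1 passed for BTZ (2.13, SE 0.46, adjusted p = 0.0495, limma), 1 of 9 members where 0.75% of all genes passed (0.215% higher and 0.535% lower). CON of JEKO-1 is 1 library, assumed to vary like the other groups, and holds the lowest BACH1 value of the 56. For IBR in JEKO-1 no member passed where 0.0349% of genes did. At an unadjusted p under 0.05 there were 2 members, beside 1210 of the 17203 genes. In Z138 no member passed for IBR (0.0639% of genes) or BTZ (1.92%). There, 3 and 4 members had an unadjusted p under 0.05, beside 1806 and 2644 of the 17203 genes. FTL in Z138 differed by 2.69 for IBR (SE 0.63, adjusted p = 0.118) and 3.03 for BTZ (SE 0.77, adjusted p = 0.0592). The difference between JEKO-1 and Z138 in the response was tested itself, and no member passed for IBR (0.0174% of genes) or BTZ (0.0116%). Of the 17203 genes, 674 for IBR and 1951 for BTZ had an unadjusted p under 0.05. At an unadjusted p under 0.05 there were 1 and 2 members, BACH1 for both agents (1.63, adjusted p = 1, and 1.47, adjusted p = 0.422) and BLVRB for BTZ (-5.10, adjusted p = 0.427).

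JEKO-1 held more ACO1 and NCOA4 mRNA and less FTL mRNA than MINO-P, with treatment held as a term. In that fit TFRC was also higher, but not in the CON libraries. JEKO-1 against MINO-P called 6 of 9 members where 39.1% of all genes passed (22.8% higher and 16.3% lower). ACO1, whose protein is a cytosolic aconitase when it holds an iron-sulfur cluster and an iron regulatory protein when it does not (chr9:32384603-32454770), was at 19.2 to 78.2 nuclear CPM in JEKO-1 (median 61.5) and 4.33 to 14.8 in MINO-P (median 9.51). MINO-VR ran from 6.05 to 16.0 and Z138 from 4.65 to 12.8, so JEKO-1 overlapped with none of the other lines. The fitted log2 difference from MINO-P was 2.40 (SE 0.22, adjusted p = 6.31e-13, limma), a 5.28-fold higher level. TFRC was higher by 1.38 (SE 0.28, adjusted p = 8.86e-05), NCOA4 (chr10:46005088-46030624) by 0.52 (SE 0.12, adjusted p = 0.000328) and IREB2 by 0.53 (SE 0.19, adjusted p = 0.0233). Mean TFRC was not higher in JEKO-1 in CON (424 against 441 nuclear CPM), CLF (578 against 583) or YM155 (539 against 628). It was higher in IBR (276 against 57.5), IBR_CLF (248 against 87.0), S63845 (478 against 371), BTZ (326 against 180.5) and BTZ_CLF (245 against 216). In CON, IREB2 was at 126 in JEKO-1 against 142 in MINO-P. FTL was lower, at 602 to 2070 nuclear CPM in JEKO-1 (median 1480) against 1192 to 9384 in MINO-P (median 6921), a difference of -1.69 (SE 0.28, adjusted p = 3.32e-06), and BACH1 was lower, at -0.64 (SE 0.19, adjusted p = 0.00590). On deposited CPM the NCOA4 and IREB2 differences were 0.12 (adjusted p = 0.685) and 0.13 (adjusted p = 0.743). The IREB2 call was also lost without MINO-P IBR replicate 2 or MINO-P IBR_CLF replicate 1 (adjusted p up to 0.0573), with paired names averaged (0.44, adjusted p = 0.117) and without the series term (0.38, adjusted p = 0.0556).

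**Figure D4:**
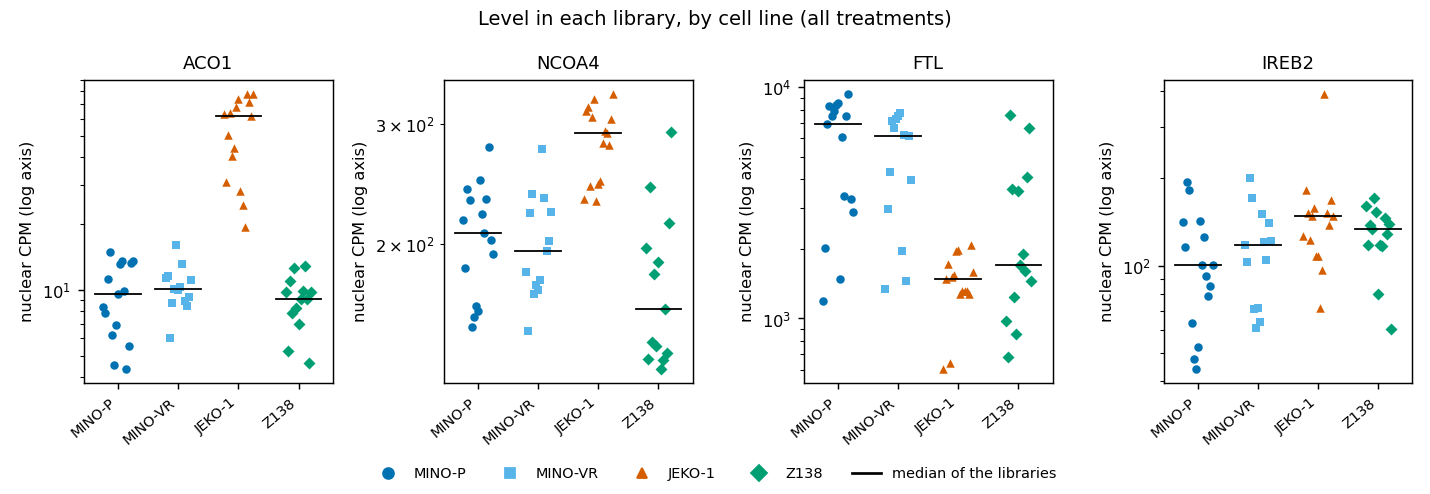
Nuclear CPM (log axis) of ACO1, NCOA4, FTL and IREB2 in each library by cell line, all treatments together; bars are medians. The 15 JEKO-1 libraries lie at 19.2 or above for ACO1, and every library of the other lines lies at 16.0 or below.

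Z138 against MINO-P called 4 of 9 members where 39.3% of genes passed (21.2% higher and 18.2% lower): TFRC (1.01, SE 0.27, adjusted p = 0.00228, limma) and IREB2 (0.49, SE 0.18, adjusted p = 0.0308) higher, FTL (-0.72, SE 0.27, adjusted p = 0.0297) and BACH1 (-0.58, SE 0.18, adjusted p = 0.0100) lower. A share of 4 in 9 is near this background. Mean TFRC was lower in Z138 than in MINO-P in CON (259 and 441 nuclear CPM), BTZ (105 and 180.5) and YM155 (302.5 and 628). It was higher in Z138 in CLF (963 and 583), S63845 (560 and 371), IBR (162 and 57.5), IBR_CLF (420 and 87.0) and IBR_YM155 (333 and 193). In CON the means in Z138 and MINO-P were 139 and 142 for IREB2, 90.7 and 82.3 for BACH1, and 827 and 1192 for FTL. On deposited CPM TFRC alone passed; without the series term TFRC (0.63, adjusted p = 0.0506) and IREB2 did not pass, and with paired names averaged FTL (-0.59, adjusted p = 0.140) and IREB2 did not. The FTL call was lost without MINO-P IBR_CLF replicate 1 or 2, Z138 IBR_CLF replicate 1, Z138 IBR_YM155 or MINO-P IBR_YM155, and the BACH1 call without either of the last 2. The IREB2 call was lost in 8 of 28 fits, those without any IBR or IBR_CLF library of Z138, or without replicate 1 or 2 of the same groups of MINO-P. Z138 against JEKO-1 called 3 of 9 where 54.5% passed (25.7% higher and 28.8% lower): FTL was higher (0.96, SE 0.25, adjusted p = 0.00100), and ACO1 (-2.48, SE 0.19, adjusted p = 1.48e-15) and NCOA4 (-0.68, SE 0.10, adjusted p = 2.77e-07) were lower. MINO-VR against MINO-P called 0 of 9 where 7.33% passed, with 0 members at an unadjusted p under 0.05, beside 3204 of the 17203 genes. FTH1 was not called in any of these 4 comparisons of lines (MINO-VR was compared with MINO-P alone). The ratio of FTH1 to FTL (not divided by length) had a median of 1.93 in JEKO-1 (1.42 to 3.74), 1.04 in Z138 (0.475 to 1.64), 0.912 in MINO-VR (0.417 to 1.65) and 0.683 in MINO-P (0.347 to 1.29). The JEKO-1 range thus lay above the whole MINO-P range and overlapped the other 2.

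Other genes of iron and heme handling, from 4 lists, were read in the same fits, where the median log2 difference of all tested genes was -0.17 for BTZ and -0.0018 for IBR. With BTZ 4.87% of all genes rose and 13.8% fell, and with IBR 4.37% rose and 6.39% fell. In heme breakdown, transport and sensing 14 genes were tested; 3 rose and 2 fell with BTZ and 3 rose with IBR, with a median log2 difference of 0.28 and 0.19. HMOX1, heme oxygenase, rose from 1.05 to 30.1 nuclear CPM in CON (median 12.4) to 254 to 1457 in IBR (median 438), a difference of 5.70 (SE 0.91, adjusted p = 5.16e-05, limma). In BTZ it ran from 5.53 to 1810 (median 387), with a difference of 4.76 (SE 0.93, adjusted p = 0.000218); the lowest was JEKO-1 BTZ replicate 3. MAFG, a small MAF partner of BACH1, rose by 2.48 (SE 0.43, adjusted p = 0.000148) with IBR and 1.57 (SE 0.44, adjusted p = 0.00821) with BTZ. MAFF, another small MAF protein, rose by 1.91 (SE 0.56, adjusted p = 0.0120) with BTZ, and SLC48A1, a heme transporter of lysosomes and endosomes, by 1.999 (SE 0.42, adjusted p = 0.00154) with IBR. In heme synthesis 11 genes were tested, of which 3 fell with BTZ (median -0.47) and 0 changed with IBR (median 0.03).

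In iron import, reduction, trafficking and sensing 18 genes were tested, of which 2 fell with BTZ (median -0.14) and 1 rose with IBR (median 0.06). In iron-sulfur cluster assembly 25 genes were tested: 1 rose and 3 fell with BTZ (median -0.45), and 1 rose and 1 fell with IBR (median -0.17). These shares are near those of all genes. FDXR, ferredoxin reductase, fell by 1.60 on the log2 scale with BTZ (SE 0.45, adjusted p = 0.00881). No gene of the 4 lists passed for CLF, YM155 or S63845.

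The genes whose level ran most like a member's over the 37 group means were ranked by Spearman rho, with no test. For FTL they were HMOX1 (0.895), RNF11 (0.891) and SARAF (0.872). For FTH1 they were BEST1 (0.872), NQO1 (0.845) and KLHL21 (0.812); BEST1 overlaps FTH1 on the opposite strand, had a median of 0.759% of its value, and reads of the 2 cannot be told apart without strand. BACH1 ran most like SRXN1 (0.920), RRAGC (0.917) and KLHL21 (0.912), and BLVRB most like REXO2 (0.890), ANXA7 (0.885) and GABARAPL1 (0.855). TFRC ran most like CDC7 (0.853), HELLS (0.851) and HNRNPD (0.849). ACO1 and NCOA4 ran most like DQX1 (0.820) and ZW10 (0.842). IREB2 and SLC11A2 ran most like LMBR1 (0.877) and DEGS1 (0.744), the last being the lowest leading value of the 9.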

How the data were processed

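The authors deposited 1 table of log2 values, log2(CPM + 1): undone, each library summed to 999984 to 1000009. The submitters' processing notes name Partek and hg38; aligner, counter and strand use are not given in the sources used here. Of 21300 single identifiers, 21207 are in release 29 of GENCODE. Values under 1e-06 were set to 0, and a row without a name (at most 0.000773% of a library) was left out. Low values were whole reads, within 0.05, for 72.3 to 91.9% per library, so no count test was used. A floor of 3 reads was 0.146 to 2.18 nuclear CPM, for counting error only.

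CPM were rescaled to nuclear genes (15 mitochondrial genes left out). Tests were run on log2(nuclear CPM + 1) in limma 3.58.1 (R 4.3.3) with its trend option, a filter of 1 CPM in 2 libraries, and the 18 comparisons given; fold changes are on that scale, which understates changes of low genes. Within-line fits averaged the 8 MINO and JEKO-1 pairs whose names differ by a final letter. The scripts were tested on simulated data. Alternatives were scaling, filter, pseudocount, series term, pairs, name suffix, lines and leaving out libraries. The members and lists were chosen with earlier results of these data known. Named list genes were up to 3 called genes of largest rise and fall over the lists together, of which some are not reported here. Replicate numbers follow the order of the series.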

Additional observations from a re-analysis of the deposited data

Results flagged for a closer look

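SLC11A2 and NCOA4 moved in opposite directions between cell lines in IBR_CLF against CON, with every library of one line above the CON of its line and every library of another below it; the difference was not tested. For SLC11A2 the ratio of IBR_CLF to CON was 1.32 in Z138, against 0.689 in JEKO-1, 0.783 in MINO-P and 0.829 in MINO-VR. For NCOA4 the ratio was 1.135 in JEKO-1, against 0.742 in MINO-P and 0.958 in MINO-VR. CON was 1 library in each of these lines except Z138, which had 2. Against 1 CON library any value falls above or below it, so the pattern is not read as a result about these genes. The IBR_CLF libraries of MINO-P, MINO-VR and JEKO-1 are close pairs whose names differ by a final letter, and may not be independent. Their chi-square per degree of freedom was 7.21, 6.18 and 4.16. The JEKO-1 pair was 60.7 and 59.1% mitochondrial, at 5.52 and 6.39 M reads. The share of all genes with such a pattern is not given here. In MINO-P and MINO-VR the CON library was of the HK series and the IBR_CLF libraries of the MCL series, so series and treatment cannot be told apart in their ratios; JEKO-1 and Z138 were all of the MCL series.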

How the results depend on the processing

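FTL and BACH1 for IBR and FTL for BTZ passed under every alternative run, as did FTH1 for IBR. Deposited CPM moved the median difference of all genes for BTZ from -0.17 to -0.42, and called 288 genes higher and 3678 lower, against 838 and 2366; size factors called 1313 and 1944. For JEKO-1 against MINO-P it called 1987 higher and 4169 lower against 3915 and 2810, and for Z138 against JEKO-1 6672 and 2819 against 4425 and 4952. In IBR against BTZ, size factors, no filter and averaged pairs each took the members called from 2 to 1, by the loss of ACO1. The shares of all genes were then 18.8%, 13.6% and 11.4%, against 18.4% in the main fit. In JEKO-1 and Z138 alone 0 members and 7.5% of all genes passed. For Z138 against MINO-P the members called went from 4 to 1 on deposited CPM (37.6% of all genes). They went to 2 without the series term (41%) or with pairs averaged (35.5%), against 39.3% of all genes in the main fit. With pairs kept separate, 1 member passed for IBR in JEKO-1 (0.663% of all genes), 2 for IBR in Z138 (1.68%) and 2 for BTZ in Z138 (4.89%). For IBR in JEKO-1, 1 passed without a filter (0.31% of all genes) or with a pseudocount of 5 (0.134%), and for BTZ in Z138, 1 with a filter of 5 CPM (1.82%). Without the 6 libraries above 50% mitochondrial, an alternative chosen after seeing the data, 1 passed for IBR in JEKO-1 (0.338% of all genes), 1 for IBR in Z138 (1.61%) and 3 for BTZ in Z138 (8.42%). BTZ in JEKO-1 was then replicate 3 against 1 CON library, each assumed to vary like the other groups: 4 of 9 members and 31.8% of all genes passed, and for the difference in BTZ response 1 member (BLVRB) and 27.6%, so these counts compare single libraries and say nothing of the members. The name suffix as a replicate block changed no call; the labels pair no samples. Leaving out 1 library gave 3 to 5 members for BTZ against CON, 1 to 2 for IBR against BTZ and 2 to 4 for Z138 against MINO-P. For most of these fits the share of all genes is not given here, so the counts are not read as a change in the members. The causes were not tested.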
